A study of Mus musculus with 2 samples.

Results

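Hbegf, Cd14 and 7 of their neighbours on mouse chromosome 18 (Cystm1, Pfdn1, Ankhd1, Sra1, Slc35a4, Ik and Zmat2) are described here, 9 of the 32285 genes counted in each library. Hbegf and Cd14 were chosen by measured values of these same libraries, their low ratio of UMIs (unique molecular identifiers, 1 per captured transcript) in APP/PS1 over WT cells, and the other 7 for lying near them. The ratios are therefore a description and carry no test. UMIs were summed per library and per cell type, to see whether the low level belonged to the 2 genes or to a block of the chromosome.

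Blood neutrophils of 7-month-old female mice had been enriched with an EasySep kit and loaded on a 10x Genomics droplet system. One library came from wild-type (WT) C57BL/6J mice and the other from APP/PS1 mice, and none were treated. Cells of 3 mice were pooled, which is read here as 3 mice per library. APP/PS1 mice carry transgenes for amyloid precursor protein and presenilin 1 and are a model of Alzheimer's disease. The promoters of the transgenes and the strain background of the APP/PS1 mice are not given in the sources used here. With 1 library per genotype, genotype, pool and library cannot be told apart, and all intervals are at the 95% level and cover counting error only.

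HB-EGF, the product of Hbegf, is a growth factor of the EGF family that is made as a membrane protein, released by metalloproteases such as ADAM17, and bound by the receptors EGFR and ERBB4. CD14 is the surface receptor of myeloid cells that takes up bacterial lipopolysaccharide (LPS) from the LPS-binding protein and passes it to the complex of TLR4 and MD-2. The neighbours belong to other pathways. Pfdn1 encodes a subunit of prefoldin, a chaperone that carries unfolded actin and tubulin. Ik and Zmat2 encode spliceosome proteins, and Ankhd1 a protein with ankyrin repeats and a KH domain. Sra1 is known as the steroid receptor RNA activator, Slc35a4 belongs to a family of nucleotide sugar transporters, and Cystm1 encodes a small membrane protein rich in cysteine.

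In the mm10 build, with the GENCODE M21 annotation, the 9 genes lay within 457 kb of chromosome 18, from the start of Cystm1 to the end of Zmat2. All 9 are annotated as protein-coding, and UMIs were counted per gene. Hbegf was at chr18:36504927-36515805 and Cd14 at chr18:36725067-36726798, both on the minus strand, with 209 kb between them. Below Hbegf lay Cystm1 (chr18:36342520-36403097, plus strand) and Pfdn1 (chr18:36403676-36454524, minus strand), which ended 50.4 kb before Hbegf. Between Hbegf and Cd14 lay Ankhd1 (chr18:36559987-36658913, plus strand), which began 44.2 kb after Hbegf, then Sra1 (chr18:36666681-36670815, minus strand) and Slc35a4 (chr18:36679215-36683861, plus strand). Above Cd14 lay Ik (chr18:36744656-36757639, plus strand), 17.9 kb away, and Zmat2 (chr18:36793876-36799666, plus strand). A low level over the whole stretch from Hbegf to Cd14 would thus have included Ankhd1, Sra1 and Slc35a4.

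The WT library held 17123 barcodes with 92458623 UMIs, and the APP/PS1 library 17645 barcodes with 84870864 UMIs. After filtering, 14564 WT and 15208 APP/PS1 cells were kept, of which 7583 (52.1%) and 9590 (63.1%) lay in clusters with neutrophil markers. The remaining cells were mainly monocytes (5368 and 3607), NK cells (425 and 764), T cells (428 and 542) and B cells (304 and 307), so the label of neutrophils held for part of each library. Neutrophils had a median of 2553 UMIs in WT and 2703 in APP/PS1. The libraries shared 83 barcodes, which held 17 of the WT Hbegf UMIs and none of the APP/PS1 ones, so the low APP/PS1 level did not rest on them.

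Hbegf was far lower in APP/PS1 cells of every blood cell type that held enough UMIs. In neutrophils, 1326 Hbegf UMIs were counted in WT and 74 in APP/PS1, that is 60.9 CPM (UMIs per 1000000 UMIs of the cell type, interval 57.7 to 64.3) against 2.51 (1.97 to 3.15). The WT level was 24.3-fold higher (19.2 to 31.1), a log2 ratio of APP/PS1 over WT of -4.60 (-4.96 to -4.26). Monocytes held 1127 and 21 Hbegf UMIs, 32.5 and 0.940 CPM, a log2 ratio of -5.11 (-5.81 to -4.49). Both monocyte clusters took part, with 43.6 and 0.809 CPM in the one led by Eno3, Adgre4 and Ace and 25.0 and 1.02 CPM in the one led by Fn1, F13a1 and Ccr2. The counting intervals of the 2 libraries were well apart in each case. This is partly built in, since Hbegf was chosen for its low ratio in these libraries.

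Lymphocytes showed the same order for Hbegf. The WT level was 67.1 CPM in NK cells, 64.8 in T cells and 61.2 in B cells, and the APP/PS1 level 1.73, 1.74 and 1.09 CPM, from only 5, 4 and 2 UMIs. The log2 ratio was -5.28 (-6.93 to -4.01) in NK cells, -5.22 (-7.11 to -3.83) in T cells and -5.81 (-8.87 to -3.92) in B cells. Basophils held 35 Hbegf UMIs in WT and 0 in APP/PS1, which allows 13.8 CPM at a count of 3 and 17.0 CPM at the upper end of the Poisson interval. Erythroid cells held 26 and 0 (13.5 CPM in WT, and in APP/PS1 by the same limits 3.02 and 3.71 CPM). Platelets, with 16 cells in each library, held no UMI of Hbegf or Cd14.

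Within WT, Hbegf in lymphocytes was at the level of neutrophils. Relative to WT neutrophils, it was 110% in NK cells (90.1 to 134), 106% in T cells (88.6 to 127) and 100% in B cells (81.2 to 123), with intervals that all held the neutrophil level, and it was lower in monocytes at 53.4% (49.3 to 57.9). Genes made by neutrophils had lower shares there. S100a8, a calcium-binding protein of neutrophils, stood in WT NK, T and B cells at 10.6%, 7.44% and 7.20% of the neutrophil level, and Csf3r, the G-CSF receptor, at 10.3%, 8.89% and 9.16%. The Hbegf shares of WT lymphocytes were thus above those of S100a8 and Csf3r, and the source of these UMIs was not tested. Relative to APP/PS1 neutrophils, Hbegf stood at 69.0% (21.8 to 168) in NK cells, 69.5% (18.4 to 185) in T cells and 43.6% (5.18 to 163) in B cells.

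**Figure D1:**
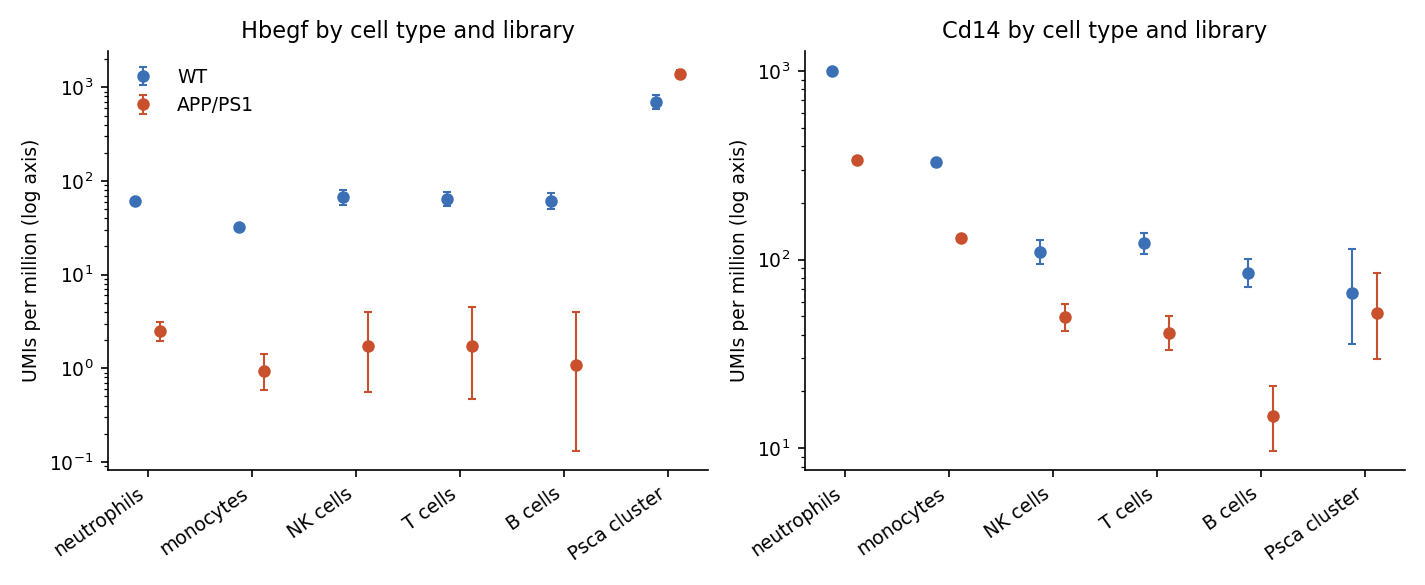
CPM of Hbegf (left) and Cd14 (right) in 5 blood cell types and in the cluster led by Psca, on log axes, for the WT library (blue) and the APP/PS1 library (red); bars are exact Poisson intervals at the 95% level, 1 library per genotype. APP/PS1 lies below WT in all 5 blood cell types for both genes, and above WT for Hbegf in the Psca cluster (1401 against 693 CPM). Most cells of the Psca cluster were left out by the filters used for the 5 types.

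Cd14 was lower as well, by less. In neutrophils, 21828 Cd14 UMIs were counted in WT and 9993 in APP/PS1, or 1003 CPM (989 to 1016) against 339 (332 to 346), a log2 ratio of -1.56 (-1.60 to -1.53) and a 2.96-fold higher WT level. In monocytes the levels were 328 and 130 CPM, a log2 ratio of -1.33 (-1.39 to -1.27). Monocytes of the cluster led by Fn1, F13a1 and Ccr2 held 403 CPM in WT and 164 in APP/PS1, and those led by Eno3, Adgre4 and Ace 217 and 76.5 CPM.

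In lymphocytes Cd14 stood far below its neutrophil level. NK cells held 110 and 49.5 CPM, T cells 122 and 41.0, and B cells, which are not known to make CD14, 85.4 and 14.8. These WT levels were 10.9%, 12.2% and 8.52% of the WT neutrophil level. S100a8 was near that share in NK cells (10.6%), and its shares were lower in T cells (7.44%) and B cells (7.20%). The log2 ratios were -1.15 (-1.47 to -0.82) in NK cells, -1.58 (-1.93 to -1.23) in T cells and -2.53 (-3.18 to -1.93) in B cells. Relative to APP/PS1 neutrophils, Cd14 stood at 14.6%, 12.1% and 4.35% in NK, T and B cells, and S100a8 at 11.9%, 9.26% and 4.55%. The source of the Cd14 UMIs in lymphocytes was not tested. Erythroid cells had the ratio nearest to 0, -0.75 (-1.06 to -0.45), from 395 and 121 UMIs.

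Shares of cells with a UMI gave the same order. Of neutrophils, 68.9% held Cd14 in WT and 43.2% in APP/PS1, against 15.8% and 6.51% of B cells. The median UMIs per cell were 2553 and 2703 in neutrophils and 5004.5 and 5875 in B cells. With every cell thinned to 1000 UMIs, the shares of neutrophils were 48.3% (47.1 to 49.4) and 23.4% (22.6 to 24.3), and those of B cells 6.58% and 2.28%. Only 2 APP/PS1 neutrophils were too shallow to be thinned. Neutrophils with 3 or more Cd14 UMIs made up 38.6% of WT and 13.9% of APP/PS1.

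Hbegf was found in few cells even in WT. It was detected in 841 of the 7583 WT neutrophils (11.1%, exact binomial interval 10.4 to 11.8) and in 43 of the 9590 APP/PS1 neutrophils (0.448%, 0.325 to 0.604). B cells, at 21.4% and 0.326%, were not below neutrophils in WT, so no background share can be read from them for this gene. After thinning, 4.80% of WT neutrophils, 6.35% of NK cells and 5.26% of B cells held it, against 0.136%, 0.131% and 0% in APP/PS1. The 0 of 307 B cells allows a share of up to 1.19%. No more than 7 Hbegf UMIs were counted in any WT neutrophil.

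Cells with both genes were also counted. In WT, 88.1% of the neutrophils with Hbegf held Cd14, against 68.9% of all neutrophils, and cells with Hbegf were deeper, with a median of 2929 UMIs against 2514. Between WT neutrophils with and without a Hbegf UMI, the Cd14 level was 1442 and 932 CPM. In APP/PS1 it was 395 and 339 CPM, from only 43 cells with Hbegf, and 53.5% of those held Cd14. The part of depth in this was not tested.

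The 7 neighbours had nearly the same level in both libraries. In neutrophils their log2 ratios ran from -0.21 to 0.08, with a median of 0.00, and none was past 0.5 in either direction, the size used as a call throughout. Over all 9487 genes with at least 50 UMIs in neutrophils, 4.42% were lower by more than 0.5 and 6.33% higher, and the median log2 ratio was 0.06. All 9 genes reached that minimum in neutrophils, and 2 of them, Hbegf and Cd14, the genes chosen for it, were lower.

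Pfdn1, the neighbour just below Hbegf, held 3.95 CPM in WT and 4.17 in APP/PS1 neutrophils, from 86 and 123 UMIs, a log2 ratio of 0.08 (-0.33 to 0.49). Cystm1 held 4.18 and 4.17 CPM, a ratio of 0.00 (-0.41 to 0.40). These 2 genes were sparse in neutrophils and their intervals wide, but neither interval reached the ratio of Cd14.

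The 3 genes between Hbegf and Cd14 gave tighter values. Ankhd1 held 55.7 CPM in WT and 57.0 in APP/PS1 neutrophils, a log2 ratio of 0.03 (-0.07 to 0.14). Sra1 held 68.9 and 69.8 CPM, 0.02 (-0.08 to 0.12). Slc35a4 held 7.26 and 6.85 CPM, -0.08 (-0.39 to 0.23). In neutrophils the low level thus did not extend over the stretch between the 2 genes.

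Above Cd14, Ik held 65.6 CPM in WT and 56.6 in APP/PS1 neutrophils, a log2 ratio of -0.21 (-0.32 to -0.11). Zmat2 held 80.3 and 73.4 CPM, -0.13 (-0.22 to -0.04). For these 2 spliceosome genes the interval lay below 0, within the size used as a call.

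In monocytes the neighbours were as level. Of the 6 that reached 50 UMIs, none was past 0.5, and the ratios ran from -0.19 for Ankhd1 (63.7 and 56.0 CPM) to 0.06 for Pfdn1 (41.0 and 42.7 CPM). Of all 11104 genes tested in monocytes, 3.83% were lower and 3.15% higher by that size. Cystm1 had only 24 and 10 UMIs there and was left below the minimum. Pfdn1 and Slc35a4 were higher in monocytes than in neutrophils of both libraries, Slc35a4 with 27.2 CPM in WT and 24.4 in APP/PS1.

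Across lymphocytes, 1 value of a neighbour passed the size of a call. In NK cells, where 3.91% of genes were lower, the 6 neighbours at the minimum lay between -0.18 and 0.25. In T cells, where 6.47% were lower, they lay between -0.02 and 0.21. In B cells, where 8.99% were lower, Slc35a4 had 42 and 31 UMIs, 25.4 and 17.0 CPM, a log2 ratio of -0.59 whose interval (-1.30 to 0.12) held 0. Cystm1 stayed below 50 UMIs in all lymphocytes.

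**Figure D2:**
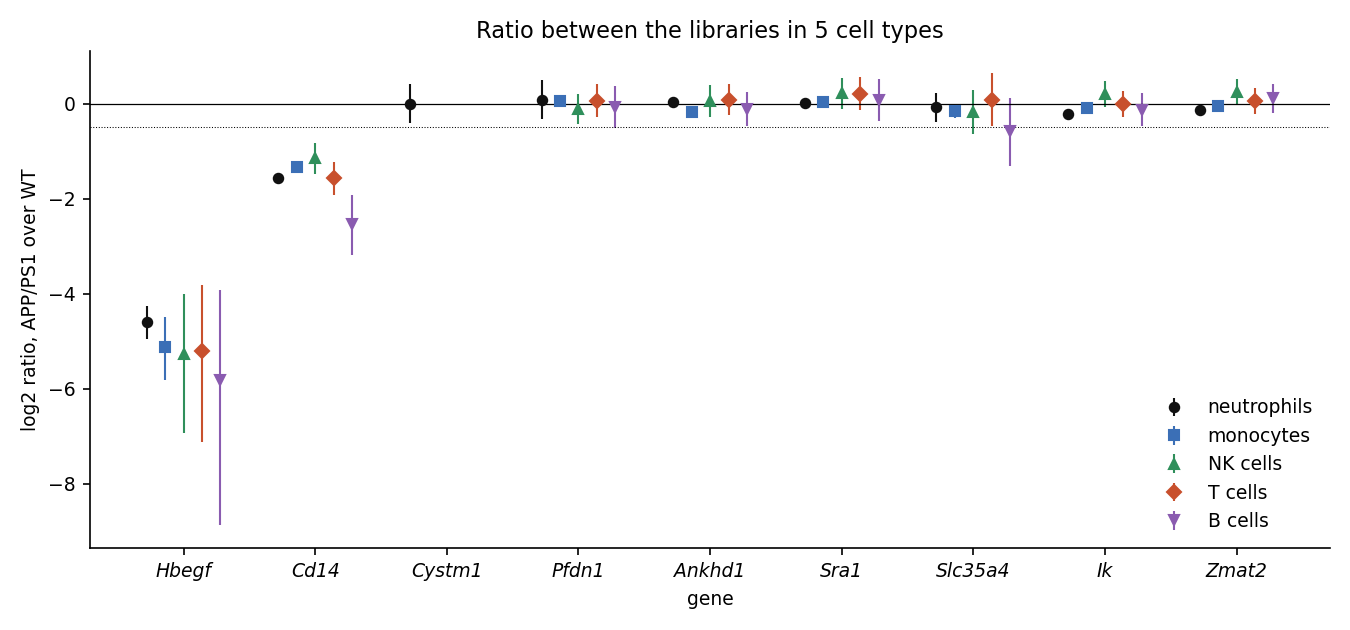
Log2 ratio of APP/PS1 over WT (y axis) for the 9 genes (x axis) in 5 cell types (symbols); bars are exact conditional intervals at the 95% level and the dotted line marks -0.5, with genes under 50 UMIs in a type left out. Hbegf lies between -5.81 and -4.60 and Cd14 between -2.53 and -1.15, while the other 7 lie between -0.59 and 0.25.

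Of the 131 genes annotated within 1 Mb of Hbegf or Cd14, 106 were in the files and 24 reached 50 UMIs in neutrophils. Of these, 4 (16.7%) were lower by more than 0.5 and 2 (8.33%) higher, against 4.42% and 6.33% of all genes, and the median log2 ratio was 0.00. The 4 include Hbegf and Cd14, around which the window was set. Besides Hbegf and Cd14, the lower genes were Tmem173, which encodes the DNA-sensing adaptor STING, with 73 and 50 UMIs and a log2 ratio of -0.98 (-1.53 to -0.44), and Tmco6, 8.24 kb above Cd14, with 19.5 and 13.6 CPM and -0.52 (-0.72 to -0.32). The higher ones were Wdr55 at 0.77 (0.16 to 1.40) and Taf7, a subunit of the transcription factor TFIID, at 0.53 (0.49 to 0.57).

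The other 11 genes of the window outside the 9 and these 4 stayed within 0.5 in neutrophils. Snhg4 had a log2 ratio of 0.49, Igip 0.31, Paip2 0.24, Eif4ebp3 0.14 and Pura 0.11. Hars2 had 0.07 and Ndufa2 0.01. Ube2d2a had -0.06, Hars -0.07, Matr3 -0.08 and Apbb3 -0.13. Ndufa2, a subunit of respiratory complex I that lies between Cd14 and Ik, held 113 and 114 CPM.

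In monocytes, 29 genes of the window reached 50 UMIs, 4 (13.8%) were lower and 1 higher, against 3.83% and 3.15% of all genes. Neither Tmem173, at -0.19 (41.3 and 36.2 CPM), nor Tmco6, at 0.00, was past the size of a call there. The lower genes besides Hbegf and Cd14 were Dnd1 at -1.21 (68 and 19 UMIs) and Spata24 at -0.59 (49 and 21 UMIs, an interval that held 0). Taf7 was at 0.39 (0.32 to 0.46). In NK and T cells, Hbegf and Cd14 were the only genes of the window lower by more than 0.5, of 21 and 18, and in B cells Slc35a4 joined them, of 20.

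**Figure D3:**
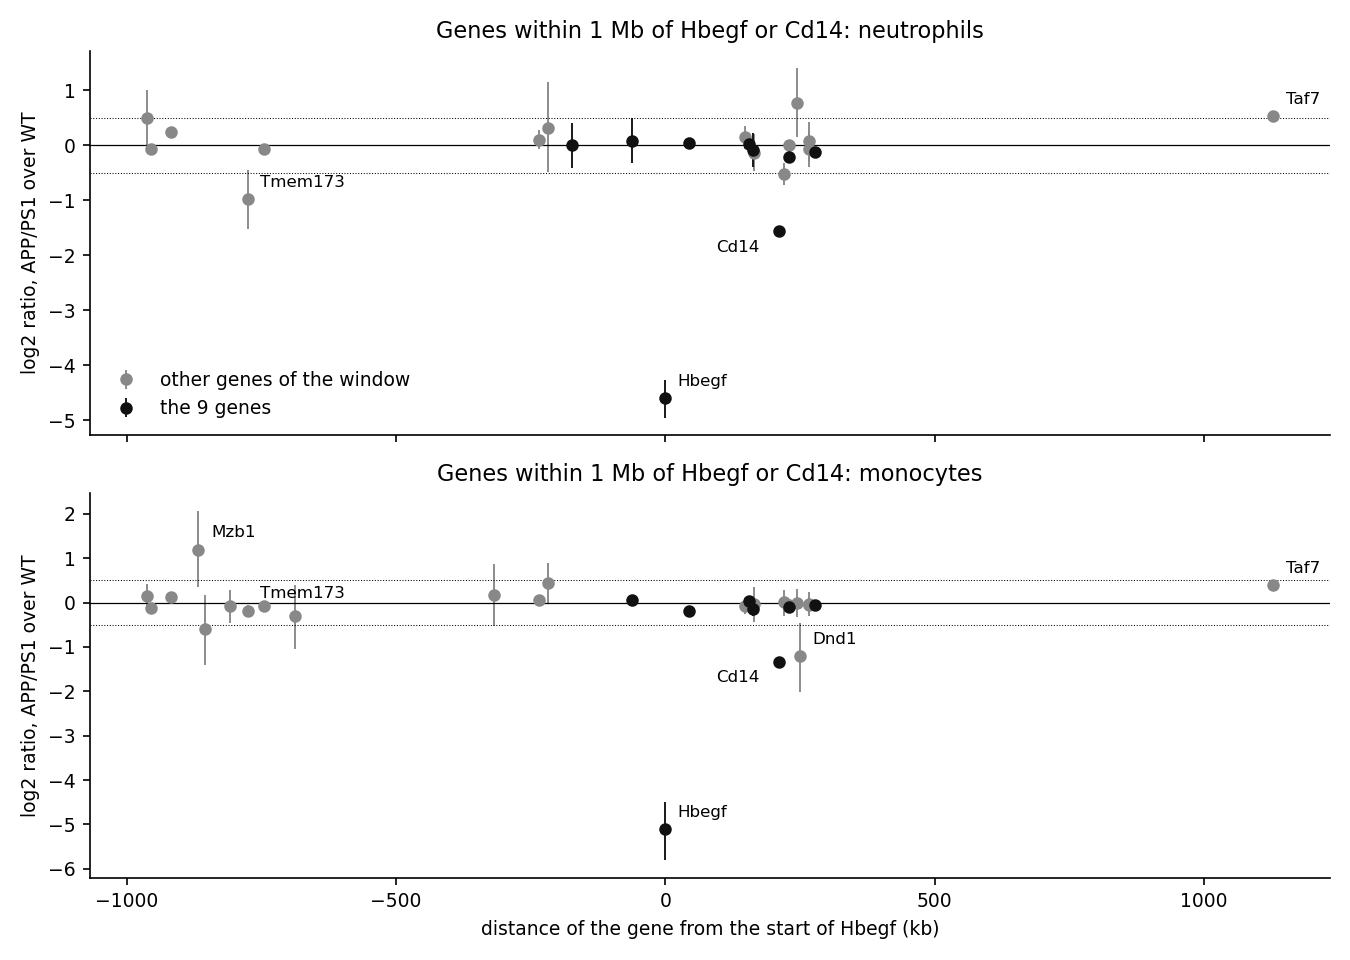
Log2 ratio of APP/PS1 over WT (y axis) for genes within 1 Mb of Hbegf or Cd14 with at least 50 UMIs, by distance from the start of Hbegf in kb (x axis), in neutrophils (top) and monocytes (bottom); the 9 genes are black, the rest grey, bars are exact conditional intervals and dotted lines mark 0.5 in either direction. Hbegf (-4.60 and -5.11) and Cd14 (-1.56 and -1.33) lie lowest, and 18 of 24 genes in neutrophils and 24 of 29 in monocytes lie within 0.5. The next lowest are Tmem173 (-0.98) in neutrophils and Dnd1 (-1.21) in monocytes. Tmco6, 8.24 kb above Cd14, is at -0.52 in neutrophils and 0.00 in monocytes.

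Among all genes of neutrophils, Hbegf had the third lowest ratio of 9487 and Cd14 the 15th lowest. Among the 7120 genes with at least 200 UMIs they ranked 2 and 8 from the lowest. In NK, T and B cells Hbegf ranked 1, and in monocytes 2 of 11104. Cd14 ranked 31 in monocytes, 4 of 7240 in NK cells, 17 of 7377 in T cells and 6 of 6305 in B cells. Of the 5597 genes with at least 50 UMIs in all 5 cell types, 2 were lower by more than 1 log2 in each type, and these were Hbegf and Cd14. Both had been chosen for their low ratios in these same libraries, so these ranks and this count are partly built into the choice. In WT NK, T and B cells Cd14 stood at 10.9%, 12.2% and 8.52% of the neutrophil level, and S100a8 at 10.6%, 7.44% and 7.20%. The source of the lymphocyte Cd14 UMIs was not tested, so the 5 types are not taken as separate observations of Cd14. Of all chromosome 18 genes tested in neutrophils, 4.82% of 228 were lower by more than 0.5, within the range of the 20 chromosomes with at least 50 genes (2.92% to 6.50%).

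**Figure D4:**
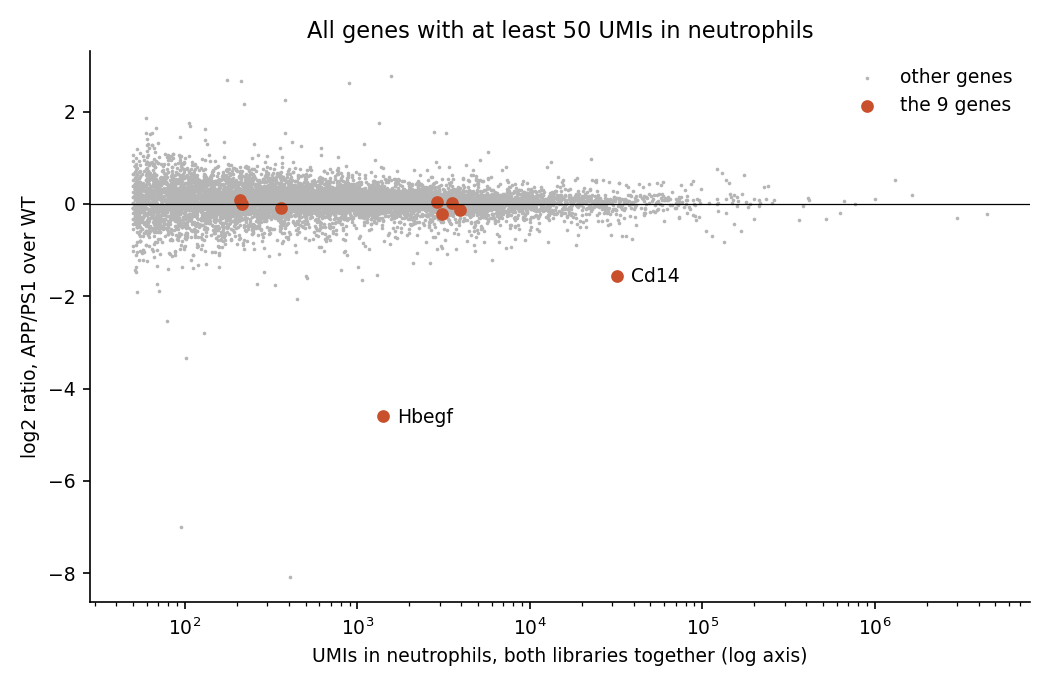
Log2 ratio of APP/PS1 over WT (y axis) against summed UMIs of both libraries (x axis, log scale) for genes with at least 50 UMIs in neutrophils; 1 gene listed at 0 in a library is not drawn. Hbegf (1400 UMIs, -4.60) and Cd14 (31821 UMIs, -1.56) lie apart from genes of like depth, and the other 7 (red, unlabelled) lie in the main band.

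Neutrophils were then clustered on features without the genes within 1 Mb of Hbegf or Cd14, the 9 among them. Genes that differed by more than 0.5 log2 between the libraries were left out too, which gave 7 clusters, numbered n0 to n6. Both genes were lower in APP/PS1 in every one. Hbegf in WT ranged from 28.7 CPM in n1, led by Clec4n and Dusp2, to 74.2 CPM in n4. Between these, n0, led by Stfa2 and Retnlg, held 65.5 CPM, n2, led by platelet genes, 62.6, n3, led by interferon-induced Ifit genes, 59.9, and n5, led by the granule genes Camp, Ngp and Ltf, 72.3. In n1 the APP/PS1 level was 4.36 CPM, from 29 UMIs against 86 in WT.

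The log2 ratio of Hbegf was -2.72 (-3.38 to -2.10) in n1 and between -5.56 and -4.38 in n0, n2, n3 and n4. The interval of n1 did not overlap those of n0, n2, n3 and n4, but these intervals cover counting error only. The 29 APP/PS1 UMIs of n1 lay in 17 cells and the 20 of n2 in 9. Whether n1 differed from the other clusters was not tested. With all variable features other than the genes within 1 Mb of Hbegf or Cd14 used for clustering, the cluster led by Clec4n held 24.3 and 5.76 CPM. Its ratio was -2.08 (-2.80 to -1.38). In n5 the APP/PS1 library held 0 UMIs, and in n6, led by mitochondrial genes, 9 and 2 UMIs gave -2.53 (-5.78 to -0.26). The share of cells in n1 was itself unequal, with 1417 WT and 2791 APP/PS1 cells.

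Cd14 was more even over the clusters. Its WT level lay between 902 and 1070 CPM in all 7. The APP/PS1 level lay between 305 and 386 CPM except in n5, where it was 174 CPM against 907 in WT, a log2 ratio of -2.38 (-2.60 to -2.17). The ratio nearest to 0 was that of n1, -1.23 (-1.31 to -1.16).

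**Figure D5:**
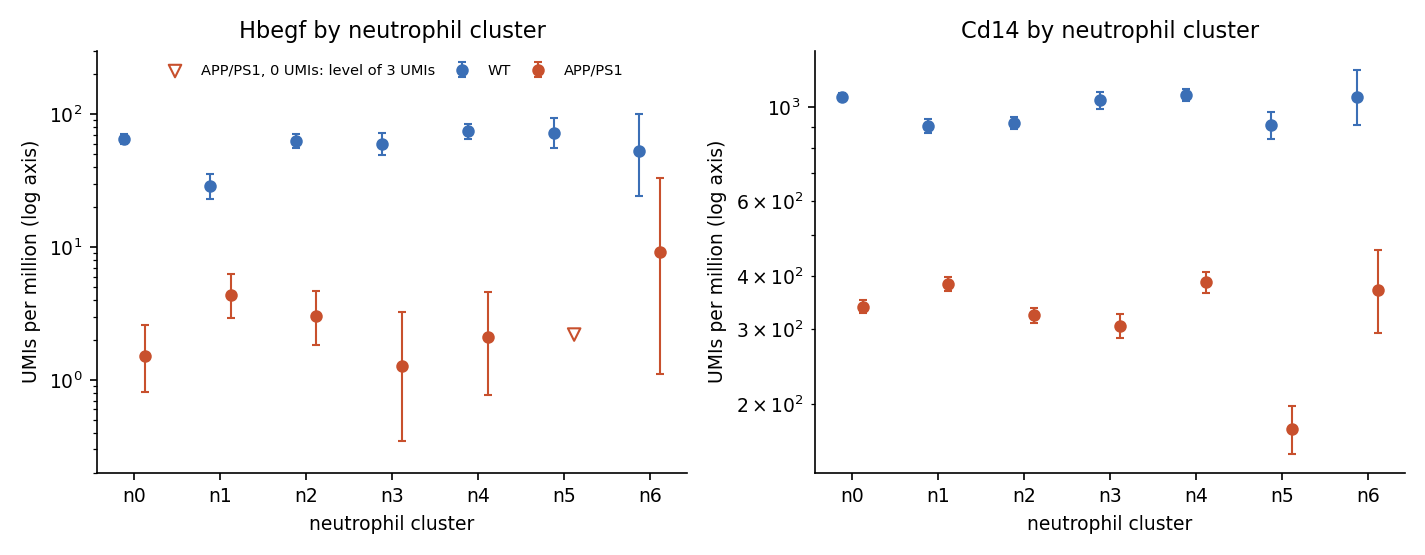
CPM of Hbegf (left) and Cd14 (right) in 7 neutrophil clusters (x axis) on log axes, for WT (blue) and APP/PS1 (red); bars are exact Poisson intervals at the 95% level and the open triangle marks the level of 3 UMIs where none was counted. WT lies above APP/PS1 in each cluster, with the WT Hbegf level lowest in n1 (28.7 CPM) and the APP/PS1 Cd14 level lowest in n5 (174 CPM).

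Outside the kept cells, Hbegf showed another pattern. Of the 587 Hbegf UMIs in all APP/PS1 barcodes, 475 (80.9%) lay in barcodes that the filters left out, against 29.9% of the 4213 WT UMIs. The 10 highest APP/PS1 barcodes held 413 UMIs, or 70.4%. Without percentile limits on genes and UMIs, a cluster of 13 WT and 15 APP/PS1 cells formed, led by Psca, Mal and Krt13, genes known from squamous and mucosal epithelium, and it was singled out after its values were seen. It held 430 of the 587 APP/PS1 UMIs and 135 of the WT ones.

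In this cluster Hbegf was higher in APP/PS1, at 1401 CPM (1272 to 1540) against 693 (581 to 820) in WT, a log2 ratio of 1.02 (0.73 to 1.31). It was detected in 12 of 13 WT and 13 of 15 APP/PS1 cells, with a median of 8 and 14 UMIs per cell and at most 34 and 88. The cells were deep, with a median of 15663 and 17437 UMIs, and no barcode of the cluster was shared by the libraries. The genes that lead the cluster differed by less, with log2 ratios of -0.51 for Psca (17766 and 12500 CPM), -0.41 for Krt13 (6413 and 4842 CPM) and 0.25 for Mal. Cd14 had 13 and 16 UMIs there, a log2 ratio of -0.36 (-1.51 to 0.82). Hbegf transcripts were thus counted at high levels in a few cells of the APP/PS1 library whereas its neutrophils held 2.51 CPM.

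Over all deposited barcodes the Hbegf log2 ratio was -2.72 (-2.85 to -2.59), from 45.6 and 6.92 CPM. Without the Psca cluster it was -4.57 (-4.81 to -4.34), close to the -4.63 of the kept cells. Cd14 had -1.30 with and without the cluster. An unnamed cluster of the kept cells, led by immunoglobulin and epithelial genes, had held 90 WT and 6 APP/PS1 Hbegf UMIs. Without the 6 WT and 3 APP/PS1 cells that belonged to the Psca cluster, 10 and 2 UMIs remained there. Among those kept cells WT thus held most of the Hbegf UMIs. The higher APP/PS1 level of the Psca cluster came from its cells that the filters left out.

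Most partners of CD14 in LPS recognition were within 0.5. Of 18 listed genes, all at the minimum in neutrophils, 4 were lower by more than 0.5 and none was higher, where 4.42% and 6.33% of all genes were. The median log2 ratio was -0.02, against 0.06 for all genes. Tlr4, the signalling receptor, held 40.3 and 37.8 CPM (-0.09), and Ly96, which encodes MD-2, 37.8 and 45.7 CPM (0.27). Tlr2, the receptor for bacterial lipopeptides, was at -0.35 with 206 and 162 CPM, and the adaptor Myd88 at 0.26 with 163 and 194 CPM. The lower genes besides Cd14 were sparse: Lbp at -1.31 (77 and 42 UMIs), Tlr1 at -1.37 (63 and 33) and Ticam2 at -0.59 (58 and 52). Their intervals all lay below 0. In monocytes 2 of the 18 were lower (3.83% of all genes), Cd14 and Lbp, the latter with 124 and 19 UMIs and a ratio of -2.07 (-2.85 to -1.37).

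Of 11 ligands of the EGF family, only Hbegf reached 50 UMIs in neutrophils. In monocytes 4 did, and 2 were lower, Hbegf and Nrg1, where 3.83% of all genes were. Nrg1, a ligand of ERBB3 and ERBB4, held 6.49 and 4.03 CPM, a log2 ratio of -0.69 (-1.06 to -0.33). Of the 4 receptors, none reached the minimum in neutrophils, and Egfr had 1 UMI in the WT library and 0 in the other. Erbb3 in monocytes was level at 0.04. Of 10 genes for shedding and membrane partners, 7 reached the minimum in neutrophils and 1 was lower, against 4.42% of all genes. This was Adam17, the main sheddase of HB-EGF, with 48.3 and 30.2 CPM and -0.68 (-0.81 to -0.55). In monocytes Adam17 was at -0.09, and 1 of 7 was lower, Adam8 at -0.60, against 3.83% of all genes. Cd9, a tetraspanin that binds HB-EGF, held 1009 and 1166 CPM in neutrophils, a ratio of 0.21.

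Genes that LPS is known to induce differed in both directions. Of 20 in neutrophils, 6 were lower and 3 higher by more than 0.5, against 4.42% and 6.33% of all genes, with a median of 0.08. Il1b, the cytokine interleukin-1 beta, was near equal in the libraries (14996 and 14957 CPM). The neutrophil-attracting chemokines Cxcl2 (-0.59) and Cxcl3 (-1.42, 24.5 and 9.16 CPM) were lower, and Zfp36, which promotes decay of cytokine mRNAs, was higher at 0.75 (1709 and 2874 CPM). In monocytes 1 of 19 was lower and 3 higher, against 3.83% and 3.15% of all genes, among them the chemokine Ccl3 at 1.14 (57.2 and 126 CPM).

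The families of the neighbours were level. None of 20 proteins of the spliceosome tri-snRNP and B complex was past 0.5 in neutrophils or in monocytes, with medians of 0.03 and 0.00. Of 6 prefoldin subunits, Pfdn4 was higher in neutrophils at 0.72 (73 and 163 UMIs) and the other 5 lay within 0.5, as did all 6 in monocytes. Of all genes of neutrophils, 6.33% were higher by more than 0.5. All 5 members of the Slc35a family were within 0.5 in both cell types. Ankrd17, the paralogue of Ankhd1, was at -0.11 in neutrophils, and Eif4ebp3, the next gene after Ankhd1, at 0.14.

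The genes whose levels most resembled Hbegf over 16 groups (cell types by library) were Slc15a2, a peptide transporter (Pearson r = 0.83), D130062J10Rik (0.73), Sfxn2 (0.72), Prune1 (0.69) and Eps8l1 (0.69), of 9073 genes compared. In neutrophils Slc15a2 held 16.1 and 5.29 CPM, and the log2 ratio was -1.12 for Sfxn2, -0.76 for Prune1, -0.64 for Eps8l1 and -0.37 for D130062J10Rik. Those like Cd14 included Atp11a (0.97), Tgm2 (0.96), Mmp8 (0.96) and Ptafr (0.95). Of these, Tgm2, a transglutaminase, was at -1.21 in neutrophils (174 and 75.4 CPM), Atp11a at -0.58, Mmp8, the neutrophil collagenase, at -0.09 and Ptafr at 0.15. The groups share 2 libraries and their depth, and the measure of likeness includes the contrast between the libraries, so a lower APP/PS1 level is partly built into the choice.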

How the data were processed

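Single-cell RNA-seq of 1 WT and 1 APP/PS1 library was analysed. The authors deposited raw UMI counts per gene and barcode, made with Cell Ranger 5.0.0 and the mm10 build as named in the submitters' processing notes. Cells between the 5th and 95th percentile of genes and UMIs with at most 10% mitochondrial UMIs were kept, the limits of the study. Percentiles were taken per library, which the study does not specify, and genes in fewer than 3 cells were left out. Clustering (Seurat 5.3.0, 2000 variable features less those within 1 Mb of Hbegf or Cd14, 15 principal components, resolution 0.2) was followed by naming from marker lists. These lists did not hold the 9 genes. The rules that left an epithelial cluster unnamed and that required a leading platelet marker were written after the clusters were seen. Neutrophils were clustered after integration of the libraries by canonical correlation on 1326 features, with the resolution raised until at least as many clusters as in the study formed (0.3).

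UMIs were summed per library and type and given as CPM with exact Poisson intervals. Ratios had exact conditional intervals, and shares exact Clopper-Pearson ones. No test was made, since each genotype had 1 library. Calls needed 50 UMIs in both libraries together and an absolute log2 ratio over 0.5. Doublets stayed in, and an alternative removed the 8% of cells with the highest Scrublet score (scanpy 1.11.5). Intervals were tried only on simulated Poisson counts, the model they assume, so spread between cells or mice was not covered. Locations came from GENCODE M21, matched by gene identifier.

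The genes, lists and window were chosen with earlier results of these data known. Genes were named if they were among the 9, lay within 1 Mb of Hbegf or Cd14 with 50 UMIs in neutrophils, were among the 5 most like each by Pearson r of log2(CPM + 1) (1 of these is not reported here), or were in a pathway list. From a list, the 3 genes with the most UMIs and the 2 with the largest ratio at 200 UMIs were eligible, with Tlr4, Ly96, Lbp, Tlr1 and Ticam2 added after their values were seen, as were Dnd1 and Spata24 of the window in monocytes. Alternatives were other cell filters, doublet removal, edgeR 4.0.16 TMM sizes, sizes without abundant genes, the mean over cells, thinning to 1000 UMIs, 30 components, resolution 0.4, cells gated singly by markers, a 2 Mb window and other UMI minima.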

Additional observations from a re-analysis of the deposited data

Results flagged for a closer look

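The Hbegf log2 ratio of APP/PS1 over WT was 1.02 (0.73 to 1.31) in the 28 cells of the Psca cluster, opposite to the -4.60 of neutrophils and the negative ratios of monocytes, NK, T and B cells. It is given here because the same contrast had opposite signs in 2 sets of cells, with intervals of counting error on either side of 0. The sign was not uniform within the cluster. Among its cells that passed the filters, 6 in WT and 3 in APP/PS1, WT held most of the Hbegf UMIs. The higher APP/PS1 level came from the 7 WT and 12 APP/PS1 cells that the filters left out. The difference was not tested, since there was 1 library per genotype. The Psca cluster was singled out after its values were seen. Its Hbegf counts ran from 0 to 34 UMIs per cell in WT and from 0 to 88 in APP/PS1, a spread that the interval does not cover.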

How the results depend on the processing

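With 1 library per genotype no test, replicate or threshold of significance was at stake, and no library could be left out. No paired analysis was possible because each genotype had 1 library. Over 11 settings the log2 ratio stayed between -5.10 and -4.44 for Hbegf in neutrophils, -5.50 and -4.77 for Hbegf in monocytes, -1.61 and -1.44 for Cd14 in neutrophils, and -1.35 and -1.21 for Cd14 in monocytes. Values outside the counting interval of the reported ratio were as follows. Thinned cells gave -5.10 for Hbegf and -1.51 for Cd14 in neutrophils and -1.22 for Cd14 in monocytes. For Cd14 in neutrophils, TMM sizes and sizes without abundant genes both gave -1.61, and the mean over cells -1.52. Cells gated singly gave Cd14 -1.44 in neutrophils and -1.21 in monocytes. Percentiles over both libraries gave Cd14 -1.21 in monocytes. With 1 UMI in each library as the only filter, 7 of 37 genes of the window were lower in neutrophils in place of 4 of 24. Clustering on all variable features without the genes within 1 Mb of Hbegf or Cd14 moved the highest Cd14 ratio of a neutrophil cluster to -1.14. It moved the Hbegf ratio of the cluster led by Clec4n from -2.72 to -2.08. The direction reversed once, for Cystm1 in thinned monocytes (0.57 against -0.63, both under 50 UMIs). Gating cells singly gave Pfdn1 -0.59 in neutrophils, the cause was not tested. In all, 10 of 154 values of the 7 neighbours were past 0.5, the lowest -1.21 for Cystm1 in monocytes gated singly, with an interval that held 0. Besides Pfdn1 above, all of these were Cystm1 in monocytes. The chosen-later exclusion of the Psca cluster is given in the report. Depth limits Cystm1, Pfdn1 and Slc35a4 in neutrophils and APP/PS1 Hbegf values in monocytes, lymphocytes, basophils and erythroid cells.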

Other observations

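In neutrophils 14 genes, Hbegf among them, had a lower log2 ratio than Cd14, and several of them lay on 1 chromosome within 2 Mb of each other. Hebp1, which encodes a heme-binding protein, held 402 UMIs in WT and 2 in APP/PS1, a log2 ratio of -8.09, and Fam234b 94 and 1, a ratio of -6.99. In mm10 these 2 genes overlap at their ends on chromosome 6 (chr6:135137522-135198022 and chr6:135197977-135244955). Borcs5, with 186 and 76 UMIs and a ratio of -1.73, lay on the same chromosome, 498 kb from Hebp1 by their lower coordinates. By the same measure Cdk5rap1 (-2.80) and Uqcc1 (-1.92) lay 1512 kb apart on chromosome 2, and Hbegf and Cd14 220 kb apart. These genes were chosen after their values were seen, and whether low ratios lie near each other more often than other genes do was not tested.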
